A study of Mus musculus with 17 samples.

Results

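The set described here is 36 genes that mark the cells of brain blood vessels, chosen by symbol. The count table lists 55471 genes, and 39260 of these were counted at least once in the 17 libraries analysed, among them all 36. They were grouped by role into 11 junction and surface genes of endothelial cells, 4 endothelial growth factor receptors, 7 transporters and partners of transporters at the blood-brain barrier, 4 endothelial transcription factors, 7 pericyte genes and 3 smooth muscle genes. The measure was bulk RNA-seq of hippocampus from mice aged 3 to 6 months, of strain C57BL/6 by the labels and C57BL/6J by the methods. The methods describe the saline libraries as individual male mice and do not say this of the others. CBP-ifKO mice carried Crebbp_flox and the Camk2a_creERT2 driver, and Control mice were littermates, for which the methods state that the driver was lacking whereas the sample labels also name Camk2a_creERT2. Crebbp encodes CBP, a lysine acetyltransferase and transcriptional coactivator. Mice of both genotypes received tamoxifen in 5 administrations. The Camk2a promoter is active in excitatory neurons of the forebrain, so the deletion was not directed at the vessel cells in which the 36 genes are best known. Mice of the Sal groups had no kindling, only saline. PTZ0 mice had been through kindling, a course of pentylenetetrazole (PTZ, an antagonist of GABA-A receptors) given on alternate days, and then received saline, and PTZ45 mice had been kindled and then received 45 mg/kg PTZ. Tissue was taken 45 min after the last injection. Each genotype and treatment had 3 libraries, except Control PTZ45 with 2.

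Brain capillaries are tubes of endothelial cells sealed to each other by tight junctions, wrapped in pericytes that share their basement membrane. Because the junctions close the path between the cells, glucose, lipids and hormones enter the brain through transporters in the endothelial membrane, and efflux pumps return many drugs to the blood. Arterioles carry a layer of smooth muscle instead, which sets their diameter. In bulk tissue, fewer cells of a type and less RNA per cell cannot be told apart, and this holds for each result given here.

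Total counts per library ranged from 5831992 to 18735643, and the 36 genes took 0.085 to 0.111% of them. Crebbp itself, the targeted gene, was at 1824 to 2429 normalized counts (counts divided by the size factor of each library) in the 8 Control libraries and at 1061 to 1337 in the 9 CBP-ifKO libraries, without overlap. The libraries were sequenced in 3 lanes. Lane 3 held Control Sal and Control PTZ0, lane 4 held CBP-ifKO Sal and Control PTZ45, and lane 5 held CBP-ifKO PTZ0 and CBP-ifKO PTZ45, so every comparison of the genotypes within a treatment also compares lanes.

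Some libraries stood apart by tissue content. Markers of the choroid plexus, the vascular tissue in the ventricles that makes cerebrospinal fluid, summed to between 11160 and 45630 normalized counts in the 5 libraries Control Sal replicate 2, CBP-ifKO Sal replicate 1, Control PTZ0 replicate 2, CBP-ifKO PTZ0 replicate 3 and CBP-ifKO PTZ45 replicate 2, and to between 471 and 1209 in the other 12. Ttr, the transthyretin gene and the defining marker of that epithelium, was at 9791 to 40500 normalized counts in the former and at 63.0 to 774 in the latter. Of these 5 libraries, 2 were Control and 3 were CBP-ifKO. Each comparison of the 36 genes was therefore also fitted on the remaining libraries, 12 in all, an alternative added after the levels were seen.

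**Figure D1:**
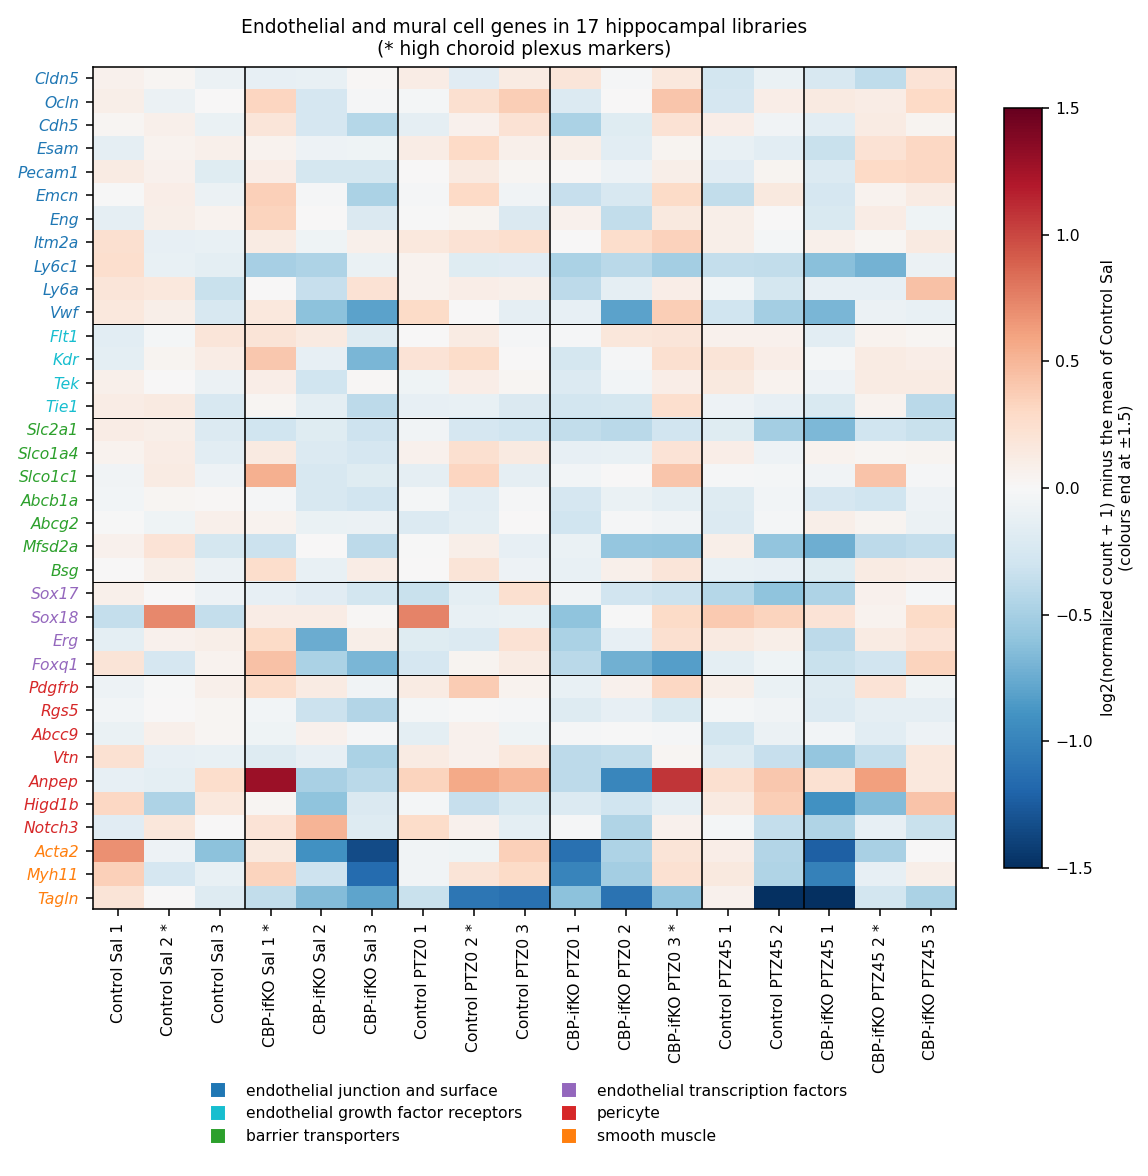
Heat map of the 36 genes (rows, names coloured by role) in the 17 libraries (columns, grouped by genotype and treatment). Colour is log2(normalized count + 1) minus the mean of the 3 Control Sal libraries, from blue (lower) to red (higher), and an asterisk marks the 5 libraries with high choroid plexus markers. Most cells are pale, and the rows of Tagln, Acta2, Myh11 and Anpep hold most of the strong colours.

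Levels between genes were compared as normalized counts per kilobase of exon, averaged over all 17 libraries. Bsg, which encodes basigin, a partner protein that brings lactate transporters to the membrane and is made by many cell types, was the most abundant at 1550 per kilobase and stood above 99.7% of the genes with counts. Rgs5, a regulator of G-protein signalling that marks pericytes, followed at 312, and Vtn, which encodes the matrix protein vitronectin, at 259. Itm2a (222), the glucose transporter gene Slc2a1 (156) and the organic anion and thyroid hormone transporter genes Slco1a4 (141) and Slco1c1 (138) came next. In Control Sal, Slco1a4 (139 ± 13.7 per kilobase, SD, n = 3) and Slco1c1 (132 ± 10.4) had overlapping ranges, so that their order was within the spread between mice. Cldn5, the main claudin of brain endothelium, was at 86.9 per kilobase. The 4 endothelial transcription factors Erg (13.1), Sox18 (10.5), Sox17 (8.77) and Foxq1 (2.74) were low, and the lowest structural gene was Tagln, encoding transgelin, at 4.49. Every role was thus represented, although Tagln (161 counts over all 17 libraries), Foxq1 (237), Sox18 (299), Higd1b (373) and Anpep (408) rested on few reads.

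Levels of the vessel genes in the libraries with choroid plexus were also described. In each of the 5, a gene's level was set against the mean of the other libraries of the same group, as a description. The median difference was above 0 for 27 of the 36 genes and below 0 for 7. The same counts over all genes were not made, so these are not read as particular to the set. Slco1c1, Tie1, Eng and Bsg were the highest of their group in all 5, with median differences of 0.46, 0.30, 0.26 and 0.20 on the log2 scale. Slco1c1 in CBP-ifKO PTZ45, for example, was at 915 normalized counts in replicate 2 against 659 and 674 in the others. Rgs5 had a median difference of 0.01 and Cldn5 of -0.08, and Ly6c1 was lower than the mean of its group in all 5 libraries, by 0.07 to 0.37. Over the genotypes the 10 plexus markers had a median log2 fold change of 1.38, with an adjusted p for 1 of them and 0 called. Their part in the vessel results was not tested.

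**Figure D2:**
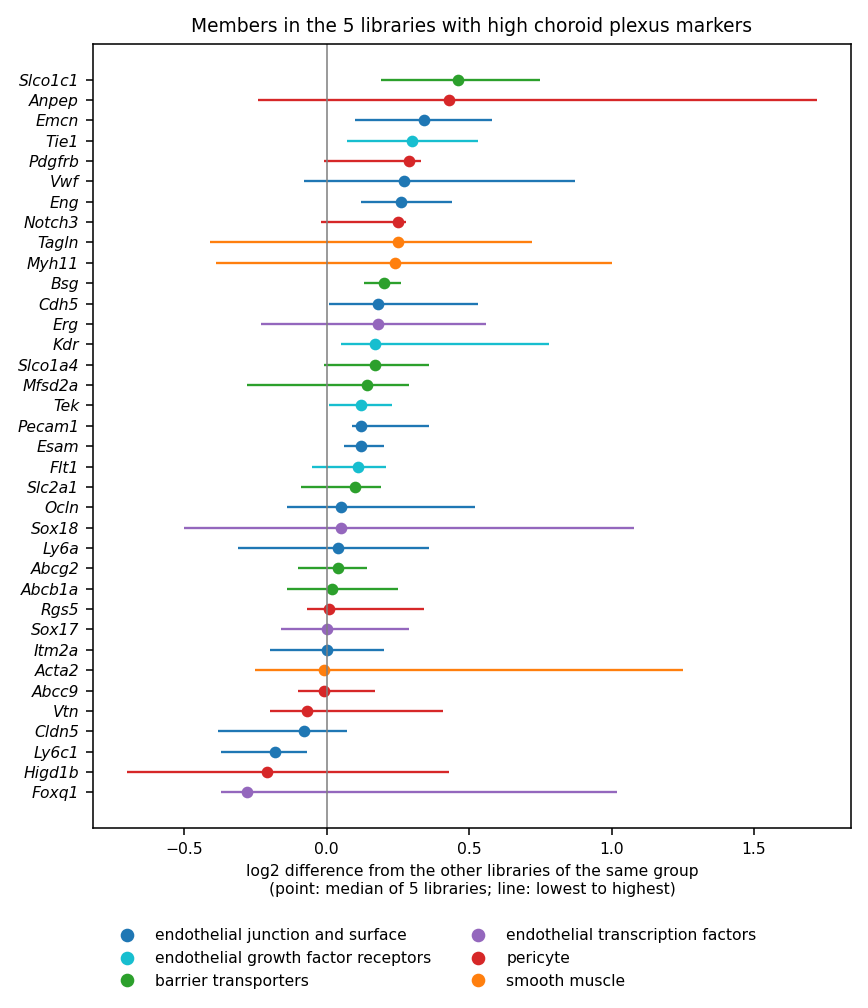
For each gene (rows, coloured by role), the log2 difference between a library with high choroid plexus markers and the mean of the other libraries of its group, as the median of 5 such libraries (point) and their range (line). Slco1c1 leads with a median of 0.46, Rgs5 lies at 0.01, and Foxq1, at -0.28, is the lowest.

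To ask whether loss of CBP in excitatory neurons was accompanied by a difference in vessel genes, the 9 CBP-ifKO libraries were compared with the 8 Control libraries, with treatment as a term (Wald test of DESeq2, 2-sided). Of the 36 genes, 4 were lower in CBP-ifKO at an adjusted p under 0.05, namely Rgs5, Mfsd2a, Ly6c1 and Slc2a1, and 0 were higher. These 4 are 11.1% of the set, where 11.5% of all 18682 genes tested were called lower, 7.76% higher and 19.3% in either direction. The median log2 fold change was -0.04 over the set and 0.01 over all genes tested, and 24 of the 36 genes (66.7%) were below 0 against 47.7% of all genes. In no gene of the set did the libraries of the genotypes separate without overlap, as they did in 2.99% of the genes tested. The 95% interval of the fold change lay within 1 log2 unit of 0 for 35 genes, all but Acta2, and within 0.5 for 27.

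Rgs5 gave the smallest adjusted p. It was at 1487, 1533 and 1565 normalized counts in Control Sal, at 1503, 1520 and 1515 in Control PTZ0 and at 1501 and 1477 in Control PTZ45. In CBP-ifKO it was at 1489, 1222 and 1123 in Sal, at 1336, 1400 and 1303 in PTZ0 and at 1329, 1389 and 1388 in PTZ45. All Control libraries lay within a narrow band, and all CBP-ifKO libraries lay below it except CBP-ifKO Sal replicate 1, which carried choroid plexus. The genotypes did not overlap in PTZ0 or in PTZ45. The log2 fold change was -0.18 (SE 0.05, DESeq2 adjusted p = 0.00123). It was -0.22 (adjusted p = 0.00177) in the 12 libraries with low choroid plexus markers. The call was kept in 24 of 25 alternatives and lost when lane was a term (log2 fold change -0.20, adjusted p = 0.99), a fit in which 0 of the 36 genes and 135 genes in all were called. That fit had as many coefficients as groups, so its genotype estimate combined the means of all groups and was imprecise. A call lost there does not tell genotype from lane. Within lane 4, which held both genotypes but at different treatments, CBP-ifKO Sal replicates 2 and 3 lay below both Control PTZ45 libraries and replicate 1 lay between them.

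Mfsd2a encodes a lipid transporter that carries docosahexaenoic acid into the brain and keeps endothelial transcytosis low. It was at 167, 184 and 132 normalized counts in Control Sal, 158, 170 and 146 in Control PTZ0 and 170 and 105 in Control PTZ45, against 128, 160 and 121 in CBP-ifKO Sal, 149, 106 and 105 in CBP-ifKO PTZ0 and 95.7, 121 and 124 in CBP-ifKO PTZ45. The genotypes overlapped in Sal, in PTZ0 and in PTZ45. The log2 fold change was -0.32 (SE 0.11, DESeq2 adjusted p = 0.0174). It was -0.24 (adjusted p = 0.264) without the choroid plexus libraries, and the call was also lost without CBP-ifKO PTZ0 replicate 3 (adjusted p = 0.0519), without Control PTZ45 replicate 1 (0.0872) and with lane as a term (log2 fold change -0.14, adjusted p = 0.999).

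Slc2a1, the glucose transporter of the barrier (GLUT1), was at 707, 692 and 567 normalized counts in Control Sal, 631, 547 and 529 in Control PTZ0 and 574 and 457 in Control PTZ45. In CBP-ifKO it was at 529, 575 and 524 in Sal, 505, 492 and 533 in PTZ0 and 409, 528 and 518 in PTZ45. Control Sal replicates 1 and 2 and Control PTZ0 replicate 1 lay above all CBP-ifKO libraries, and the other Control libraries were within the CBP-ifKO range. The log2 fold change was -0.18 (SE 0.07, DESeq2 adjusted p = 0.0371), a call that did not hold in 13 of 25 alternatives (range of adjusted p 0.00672 to 0.999). Among these were the 12 libraries with low choroid plexus markers (-0.20, adjusted p = 0.101) and the fits without Control Sal replicate 1 or 2, CBP-ifKO Sal replicate 1 or 3, Control PTZ0 replicate 1, CBP-ifKO PTZ0 replicate 1 or 2, Control PTZ45 replicate 1 or CBP-ifKO PTZ45 replicate 1, where it was between 0.0525 and 0.106. Genes annotated antisense to Slc2a1 overlap it, and as no strand use is stated their reads cannot be told apart.

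Ly6c1, a surface antigen of the Ly6 family that brain endothelium carries, was at 168, 131 and 128 normalized counts in Control Sal, 146, 124 and 125 in Control PTZ0 and 110 and 109 in Control PTZ45. In CBP-ifKO it was at 99.3, 102 and 131 in Sal, 101, 106 and 98.6 in PTZ0 and 90.4, 86.0 and 132 in PTZ45. In PTZ0 the genotypes did not overlap. The log2 fold change was -0.29 (SE 0.10, DESeq2 adjusted p = 0.0286), lost in 9 of 25 alternatives, among them the 12 libraries with low choroid plexus markers (-0.23, adjusted p = 0.27) and the lane term (-0.07, adjusted p = 0.999). It was also lost without replicate 1 or 2 of CBP-ifKO Sal, replicate 1 of Control Sal or of Control PTZ0, replicate 3 of CBP-ifKO PTZ0 or replicate 2 of CBP-ifKO PTZ45 (adjusted p between 0.0503 and 0.0946). Ly6c1 has a near-identical neighbour, Ly6c2, so its count is uncertain.

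Among the other junction and surface genes, those of the barrier's seals were not called. Cldn5 ranged from 104 to 136 normalized counts with a median of 123 in Control and from 96.0 to 145 with a median of 124 in CBP-ifKO, a log2 fold change of 0.02 with a 95% interval from -0.16 to 0.20. Ocln, the occludin gene (0.06), Pecam1, the platelet and endothelial adhesion molecule (0.00), and Esam, a junctional adhesion molecule (-0.01), were within 0.1 of 0, and their intervals lay within 0.25 of it. Vwf, von Willebrand factor of larger vessels, was at -0.15 (95% interval -0.51 to 0.20). In the 12 libraries with low choroid plexus markers Vwf (-0.40, SE 0.14, adjusted p = 0.0499) was called with Rgs5, and these were the only 2 members called there, both lower in CBP-ifKO, where 7.86% of all genes were called lower in that fit. None of the 4 receptors was called. Flt1, a receptor of vascular endothelial growth factor, ranged from 605 to 771 with a median of 693 in Control and from 594 to 776 with a median of 704 in CBP-ifKO (log2 fold change 0.02, 95% interval -0.10 to 0.14). Kdr, the other main receptor of that factor (-0.10), and the angiopoietin receptor Tek (-0.04) with its relative Tie1 (-0.05) were likewise not called.

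Of the other barrier transporters, the efflux pump genes Abcb1a (-0.12, adjusted p = 0.12) and Abcg2 (0.03, adjusted p = 0.807) did not pass, nor did Slco1c1 (0.12), Slco1a4 (-0.08) and Bsg (0.07). Abcb1a has a close copy, Abcb1b, so reads that map to both are lost to the mapping quality filter and its count is uncertain. The 4 transcription factors were all below 0, between -0.26 and -0.03, with a median SE of 0.19 and no call. Sox17, a factor of arterial endothelium, ranged from 30.4 to 55.2 with a median of 43.2 in Control and from 33.7 to 49.0 with a median of 41.5 in CBP-ifKO.

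Among the pericyte genes only Rgs5 was called. Pdgfrb, the receptor by which pericytes are recruited, ranged from 243 to 340 with a median of 274 in Control and from 227 to 323 with a median of 272 in CBP-ifKO (log2 fold change 0.01, 95% interval -0.14 to 0.16). Abcc9, a subunit of a potassium channel in pericytes (0.03), and the receptor gene Notch3 (-0.04) were near 0, and Vtn was at -0.21 (adjusted p = 0.107). Higd1b, which rested on few reads, was the lowest of the role (-0.26) and Anpep the highest (0.07). The lower Rgs5 thus stood beside pericyte genes that did not pass the test, of which Vtn and Higd1b had lower fold changes than Rgs5. All 3 smooth muscle genes were below 0 with wide intervals. Acta2, smooth muscle actin, ranged from 119 to 297 with a median of 176 in Control and from 71.7 to 210 with a median of 131 in CBP-ifKO, a log2 fold change of -0.50 (95% interval -1.03 to 0.03, adjusted p = 0.202). Markers of other cell types were examined beside these. The summed level of vascular fibroblast and meningeal markers ranged from 2049 to 2658 normalized counts in Control and from 1236 to 2358 in CBP-ifKO, and 2 of 10, Dcn and Pdgfra, were called lower (9 with an adjusted p), where 11.5% of all genes were. Astrocyte markers summed to between 65270 and 73710 in Control and between 61800 and 69790 in CBP-ifKO, with 4 of 8 called lower, against the same 11.5%. All 8 oligodendrocyte markers and all 10 macrophage and microglia markers were below 0 (medians -0.16 and -0.16) and 0 of either were called over all treatments. Of 5 red blood cell markers 4 were below 0 and 1, Alas2, was called higher (0.23, adjusted p = 0.00915). Of 8 neuron markers 3 were called lower and 1 higher. Dcn encodes a matrix proteoglycan of fibroblasts, and Pdgfra is also made by oligodendrocyte precursors. The part of these cell types in the vessel results was not tested.

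**Figure D3:**
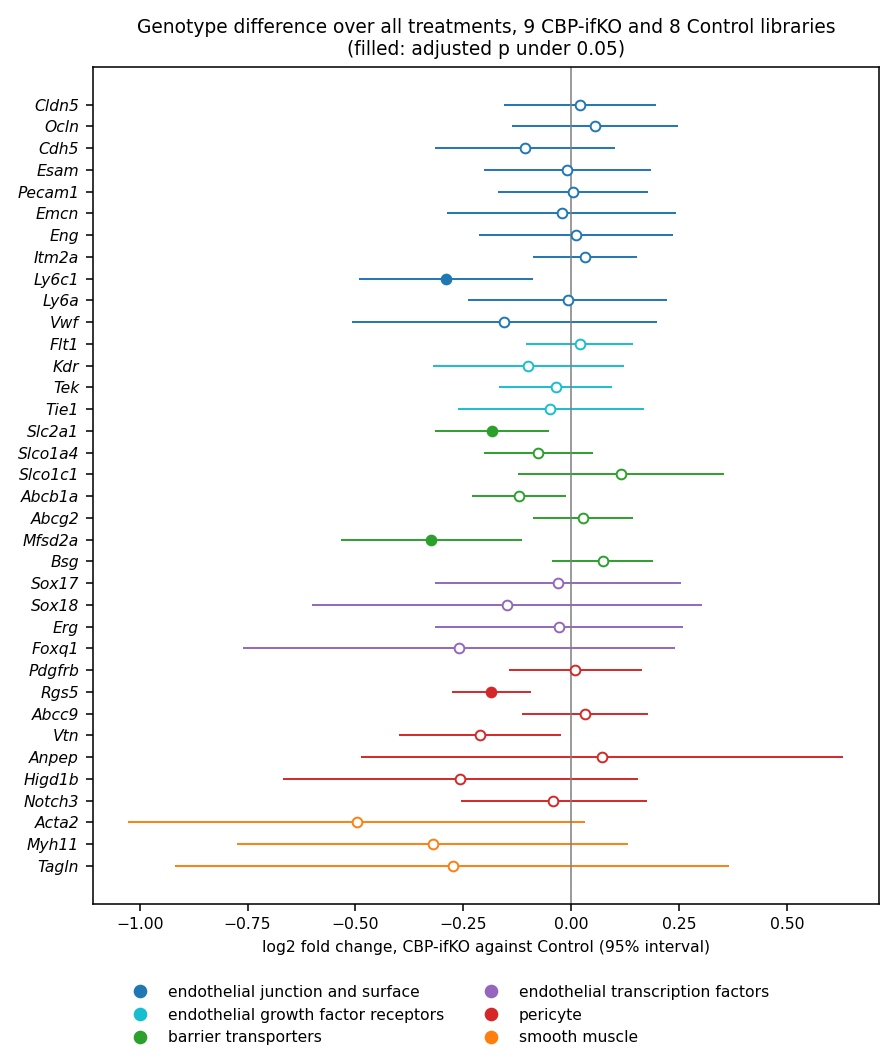
Log2 fold change of each gene between 9 CBP-ifKO and 8 Control libraries (points) with its 95% interval (lines), coloured by role and filled where the adjusted p was under 0.05. The 4 filled points, Ly6c1, Slc2a1, Mfsd2a and Rgs5, lie below 0, and Rgs5 has the narrowest interval of these.

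**Figure D4:**
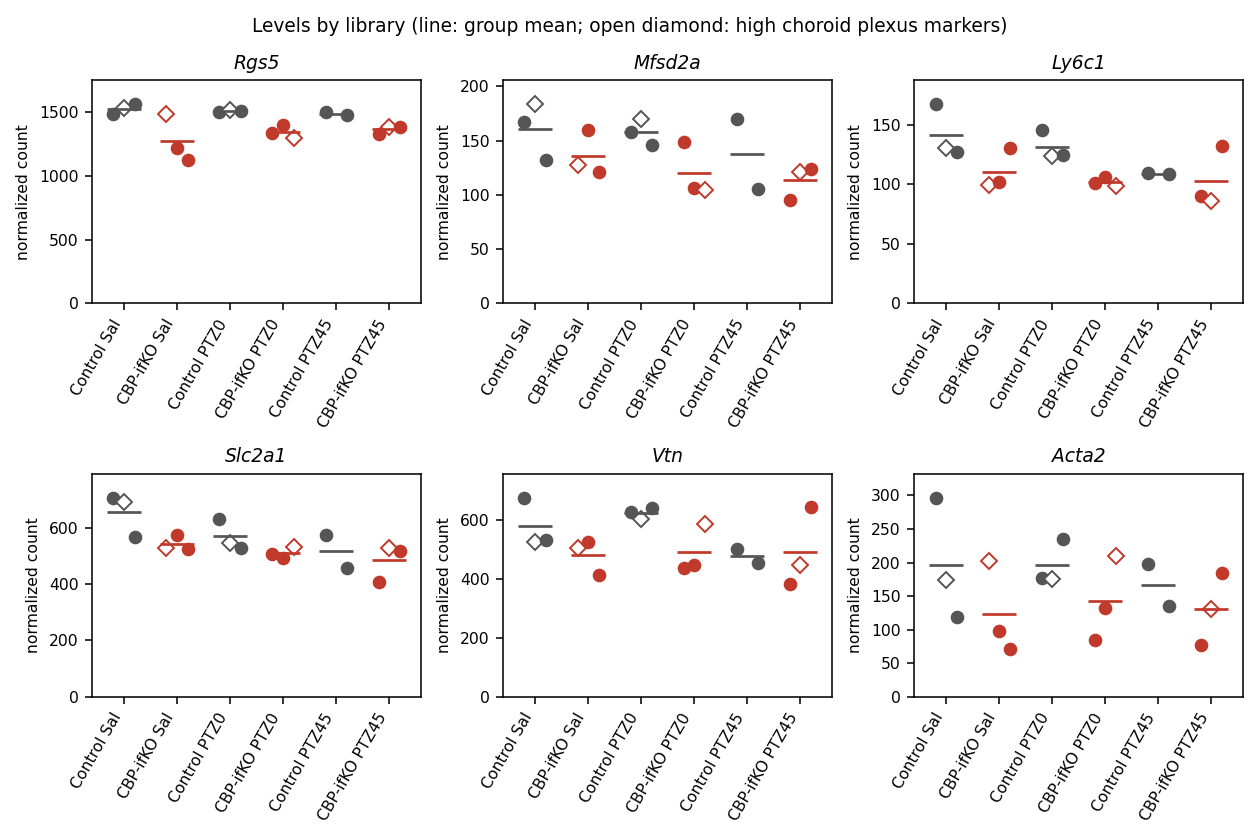
Normalized counts by library in the 6 groups for Rgs5, Mfsd2a, Ly6c1, Slc2a1, Vtn and Acta2, Control in grey and CBP-ifKO in red. Lines are group means and open diamonds are libraries with high choroid plexus markers. The 8 Control libraries of Rgs5 lie between 1477 and 1565, whereas those of Acta2 spread from 119 to 297.

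The sequence before the start of each gene called over all treatments is shown because CBP acts at promoters and enhancers and is recruited, among others, by CREB, which binds the cyclic AMP response element. Promoters of 23 of the 36 genes were found in the RefSeq table used (build GRCm38.p6). Each sequence is the 250 bases before the RefSeq start, 5′ to 3′ on the strand of the gene, and both annotated starts of Ly6c1 are given. Capitals mark matches on either strand to the core of CREB sites (TGACG or CGTCA), the GC box (GGGCGG or CCGCCC), the TATA box (TATAAA or TTTATA), an ETS core (CCGGAA or TTCCGG), the E-box CACGTG and the CArG box.
Rgs5 (chr1:169655251-169655500, plus strand): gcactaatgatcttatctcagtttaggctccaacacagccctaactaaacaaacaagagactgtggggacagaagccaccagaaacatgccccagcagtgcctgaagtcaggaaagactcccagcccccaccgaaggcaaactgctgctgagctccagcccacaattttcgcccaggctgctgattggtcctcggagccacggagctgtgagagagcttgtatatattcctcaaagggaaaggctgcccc
Mfsd2a (chr4:122961189-122961438, minus strand): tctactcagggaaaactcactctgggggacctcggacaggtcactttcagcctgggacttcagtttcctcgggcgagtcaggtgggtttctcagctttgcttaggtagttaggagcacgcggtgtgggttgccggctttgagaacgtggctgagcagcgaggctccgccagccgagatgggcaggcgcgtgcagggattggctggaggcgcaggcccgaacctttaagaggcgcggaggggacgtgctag
Slc2a1 (chr4:119108495-119108744, plus strand): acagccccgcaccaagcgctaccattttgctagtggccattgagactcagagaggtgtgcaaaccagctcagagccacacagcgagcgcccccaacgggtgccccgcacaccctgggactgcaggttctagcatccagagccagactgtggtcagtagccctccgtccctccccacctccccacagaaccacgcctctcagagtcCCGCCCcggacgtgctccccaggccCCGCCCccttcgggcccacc
Ly6c1 (chr15:75048838-75049087, minus strand): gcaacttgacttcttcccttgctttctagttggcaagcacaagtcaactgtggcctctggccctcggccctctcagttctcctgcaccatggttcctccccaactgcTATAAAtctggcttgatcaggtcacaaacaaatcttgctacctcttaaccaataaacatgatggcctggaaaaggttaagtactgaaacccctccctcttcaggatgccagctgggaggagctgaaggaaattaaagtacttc
Ly6c1 (chr15:75048664-75048913, minus strand): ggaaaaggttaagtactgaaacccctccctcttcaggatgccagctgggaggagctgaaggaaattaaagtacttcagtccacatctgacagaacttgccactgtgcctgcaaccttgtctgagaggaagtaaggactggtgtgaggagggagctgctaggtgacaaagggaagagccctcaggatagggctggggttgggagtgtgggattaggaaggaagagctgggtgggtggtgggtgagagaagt
None of these 5 windows held the core of a CREB site, which 17.8% of all 32851 promoters in the table held in the same window and which was found in 4 of the 23 genes with a promoter. Slc2a1 had 2 GC boxes, beginning 45 and 20 bases before the start, and the GC box was in 32.7% of all promoters. The more distant start of Ly6c1 had a TATA box beginning 143 bases before it, a motif in 12.4% of all promoters. Rgs5 and Mfsd2a had no match to any of the 6 motifs as defined, and other spellings of the TATA box were not searched. A match is a description of letters only.

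Within single treatments the genotype comparison had 2 or 3 libraries per group. In Sal, 0 of the 36 genes were called (DESeq2, smallest adjusted p = 0.262 among the 31 genes given one, with 3 at an unadjusted p under 0.05, all lower, and 0 called by edgeR), where 2.04% of all genes tested were called. Slc2a1 (-0.28), Rgs5 (-0.26) and Vtn (-0.28) were the 3. Without CBP-ifKO Sal replicate 1, Rgs5 (-0.39, adjusted p = 0.00835) and Vwf (-0.74, adjusted p = 0.0131) were called lower, where 0.986% of all genes were in that fit. Fibroblast and meningeal markers summed to 1457 and 1298 normalized counts in CBP-ifKO Sal replicates 2 and 3, against 2658, 2049 and 2091 in Control Sal. Over all Sal libraries 2 of 8 astrocyte markers were called lower and no marker of the other cell types was called. The part of these cell types was not tested. In PTZ0, 1 of 29 genes with an adjusted p was called, Vtn, where 6.68% of all genes were called and 5.25% called lower. Vtn was at 625.0, 602 and 640 normalized counts in Control PTZ0 and at 437, 446 and 586 in CBP-ifKO PTZ0, without overlap. The log2 fold change was -0.34 (SE 0.11, DESeq2 adjusted p = 0.0423), and the call was lost in 11 of 13 alternatives, including edgeR (0.0775), TMM size factors (0.0694) and each library left out (adjusted p between 0.171 and 0.271) except CBP-ifKO PTZ0 replicate 3, the library with choroid plexus. Without that library Vtn (-0.49), Acta2 (-0.84, adjusted p = 0.0146) and Myh11, the smooth muscle myosin gene (-0.87, adjusted p = 0.000716), were called lower, where 2.03% of all genes were in that fit. Other cell types moved in PTZ0 too. Over all its libraries 3 of 8 oligodendrocyte, 2 of 8 astrocyte, 1 of 10 fibroblast and meningeal and 1 of 5 red blood cell markers were called lower, and of 8 neuron markers 1 was lower and 1 higher. Fibroblast and meningeal markers summed to 1236 and 1784 normalized counts in CBP-ifKO PTZ0 replicates 1 and 2. In Control PTZ0 they summed to 2479, 2314 and 2554. The part of these cell types in the Vtn, Acta2 and Myh11 results was not tested. In PTZ45, 0 genes were called (31 with an adjusted p, smallest 0.678, 0 at an unadjusted p under 0.05 and 0 by edgeR), where 3.07% of all genes were called. Vtn was at 501 and 453 in Control PTZ45 and at 383, 448 and 641 in CBP-ifKO PTZ45. Groups did not overlap for 3, 4 and 4 of the 36 genes in Sal, PTZ0 and PTZ45, which is 8.33, 11.1 and 11.1% against 21.2, 28.9 and 33.8% of the genes tested.

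To ask whether an injection of PTZ after kindling was followed by a difference in vessel genes, PTZ45 was compared with Sal in each genotype. In Control, 0 of the 36 genes were called (DESeq2, smallest adjusted p = 0.382, 3 at an unadjusted p under 0.05 and 0 called by edgeR), where 1.17% of all genes tested were called. The 3 were Slc2a1 (-0.34, 95% interval -0.61 to -0.07), Vwf (-0.41, -0.76 to -0.07) and Vtn (-0.28, -0.55 to -0.01), all lower in PTZ45. The median of the set was -0.11 against 0.01 for all genes, and 7 of the 36 genes (19.4%) did not overlap between groups, against 32.3% of the genes tested. In CBP-ifKO, 0 genes were called (smallest adjusted p = 0.971, 1 at an unadjusted p under 0.05 and 0 by edgeR), where 0.294% of all genes were called, and in 0 did the groups separate, against 12.9%. That 1 was Notch3 (-0.47, 95% interval -0.88 to -0.06), and the median of the set was 0.01. Lanes differ between PTZ45 and Sal in both genotypes. Red blood cell markers summed to between 953 and 1168 normalized counts in Control Sal and between 1410 and 1709 in Control PTZ45, with 1 of 5, the beta globin gene Hbb-bs, called higher (0.62, adjusted p = 9.53e-05), and between 984 and 1097 in CBP-ifKO Sal and 887 and 1726 in CBP-ifKO PTZ45, with 0 called. Their part in the vessel results was not tested.

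No anchor of a role was called with PTZ45, and the width of the intervals differed between them. Cldn5 was at 131, 128 and 118 normalized counts in Control Sal and 104 and 117 in Control PTZ45, without overlap but not called (-0.19, 95% interval -0.61 to 0.23). In CBP-ifKO it was at 115, 116 and 127 in Sal and 106, 96.0 and 145 in PTZ45 (-0.06, -0.47 to 0.36). Flt1, at 605, 666 and 771 in Control Sal and 706 and 710 in Control PTZ45, was at 0.05 (-0.19 to 0.30). Sox17 was at 49.1, 46.8 and 44.3 in Control Sal and 34.5 and 30.4 in Control PTZ45, a log2 fold change of -0.53 whose interval, from -1.23 to 0.18, included 0. In CBP-ifKO its values of 42.9, 41.5 and 38.4 in Sal and 33.7, 49.0 and 46.0 in PTZ45 overlapped. Pdgfrb, at 247, 260 and 276 in Control Sal and 278 and 243 in Control PTZ45, had a log2 fold change of 0.00 (95% interval -0.31 to 0.31). Acta2 was at 297, 175 and 119 in Control Sal and 197 and 135 in Control PTZ45, with a log2 fold change of -0.25 and a wide interval, from -1.28 to 0.78.

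**Figure D5:**
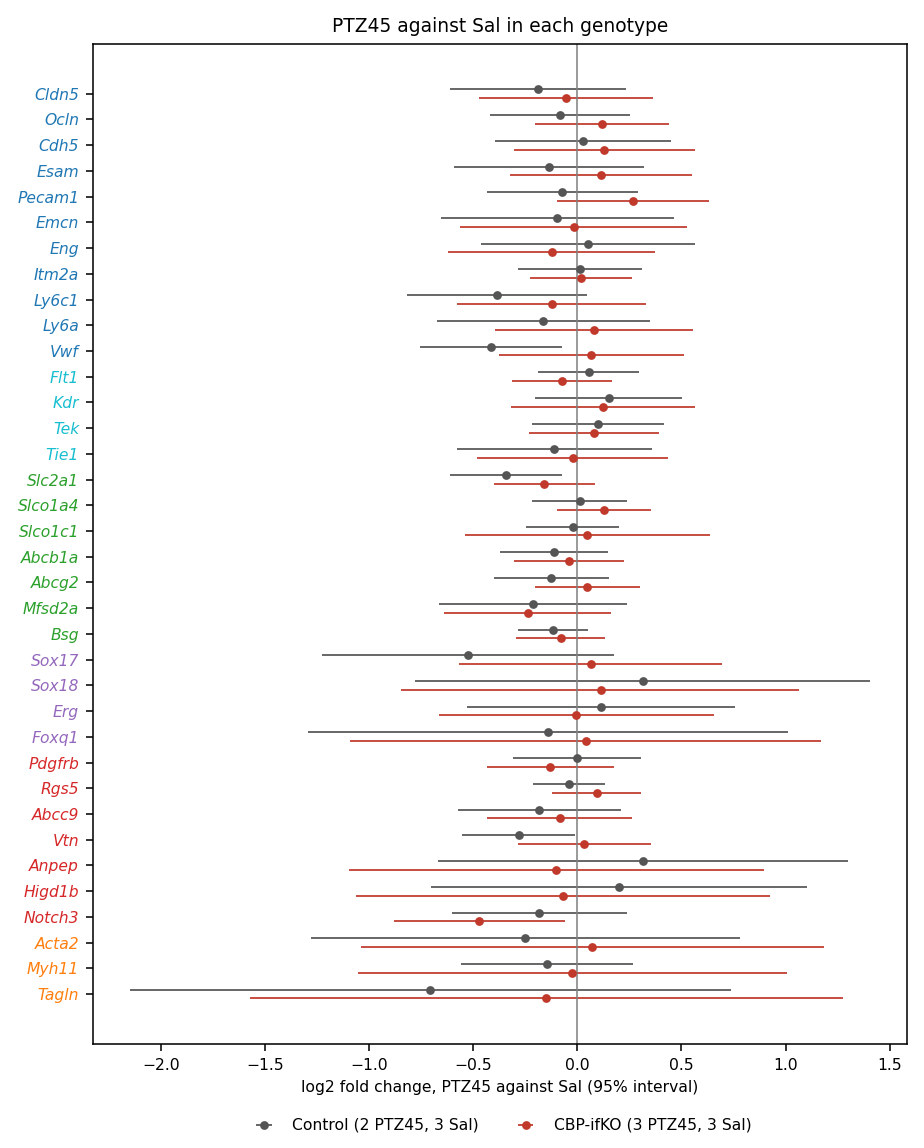
Log2 fold change of PTZ45 against Sal for each gene (rows, names coloured by role) in Control (grey, 2 PTZ45 and 3 Sal libraries) and CBP-ifKO (red, 3 and 3), with 95% intervals. No gene was called in either genotype, and the intervals of Rgs5, Bsg and Slco1a4 are among the narrow ones while those of Tagln and Foxq1 are wide.

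The difference between the genotypes in this response was tested as an interaction. None of the 36 genes was called (DESeq2, smallest adjusted p = 1.0, 0 at an unadjusted p under 0.05 and 0 by edgeR), where 0.329% of all genes were called, all of them lower. The set's median was 0.10. It was 0.22 in the libraries with low choroid plexus markers. For Rgs5 the interaction was 0.13 (95% interval -0.15 to 0.41) and for Slc2a1 0.19 (-0.18 to 0.55). The median SE was 0.30, and Sox17, at 0.59 (95% interval -0.26 to 1.44), was the highest of the set and still not at an unadjusted p under 0.05.

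Kindling alone was examined by PTZ0 against Sal. In Control, a comparison within lane 3, 0 of the 36 genes were called (0 at an unadjusted p under 0.05, 0 by edgeR) and the median was 0.03, with 0.00843% of all genes called. Groups did not overlap for 3 genes, Anpep, Esam and Tagln (8.33%, against 7.48% of the genes tested). In CBP-ifKO, where PTZ0 was in lane 5 and Sal in lane 4, 0 were called as well (0 at an unadjusted p under 0.05, 0 by edgeR, median -0.01), with 0.0112% of all genes called, and no gene of the set was without overlap, against 5.97%. Slc2a1 fell short of the unadjusted threshold in Control (-0.20, 95% interval -0.41 to 0.01). Within lane 5, PTZ45 against PTZ0 in CBP-ifKO called 0 of the 36 (0 at an unadjusted p under 0.05, 0 by edgeR, median 0.02), with 0.0872% of all genes called, and 2 genes, Abcc9 and Foxq1, were without overlap (5.56%, against 10.3%).

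In Control, PTZ45 against PTZ0 compares lane 4 with lane 3, so that treatment and lane cannot be told apart. Vtn was called lower. It was at 625.0, 602 and 640 normalized counts in PTZ0 and 501 and 453 in PTZ45, without overlap. The log2 fold change was -0.38 (SE 0.11, DESeq2 adjusted p = 0.0424), where 1.25% of all genes tested were called and 0.0667% called lower. In 8 of 12 alternatives it was no longer called, counting leaving out Control PTZ0 replicate 2 and keeping libraries with low plexus markers, which here are 1 and the same fit, separately. Its adjusted p was 0.264 in that fit, 0.875 and 0.512 without Control PTZ0 replicate 1 and 3, and 0.741 without Control PTZ45 replicate 2, a fit that leaves that group 1 library, assumed to vary like the PTZ0 libraries. The Vtn call was kept with edgeR (-0.39, adjusted p = 0.0201), with TMM size factors and with the filter on low counts. Without Control PTZ45 replicate 1 (log2 fold change -0.46) it was kept too. That fit likewise leaves the PTZ45 group 1 library, and it called a larger share of all genes lower. Over all alternatives the log2 fold change of Vtn was between -0.46 and -0.28. Vtn was at 675, 525.7 and 533 in Control Sal, of which replicate 1 lay above all PTZ0 libraries and the other two between PTZ0 and PTZ45, and the comparison of Vtn in PTZ0 between genotypes given above uses the same 3 Control PTZ0 libraries. Of the 36 genes, 28 were below 0 (77.8%, against 50.4% of all genes) and the median was -0.14, with 10 (27.8%) without overlap against 33.4% of the genes tested. Red blood cell markers summed to between 1410 and 1709 normalized counts in Control PTZ45 and to between 846 and 1043 in Control PTZ0. Of those 5 genes, Hbb-bs was called higher (0.78, adjusted p = 5.16e-09), and 0 were called lower. Markers of other cell types were below 0 in the same comparison for 10 of 10 choroid plexus genes (median -2.42), 8 of 10 fibroblast and meningeal genes (-0.32), 7 of 10 macrophage and microglia genes (-0.20), 7 of 8 oligodendrocyte genes (-0.11), 6 of 8 astrocyte genes (-0.05) and 1 of 8 neuron genes (0.10), with 0 called. The part of these markers in the result was not tested.

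Variation between mice of the same group differed by role. The SD within groups as a share of the mean (CV) had a median of 39.7% for the 3 smooth muscle genes, against 12.1% for receptors, 14.7% for junction and surface genes, 15.5% for pericyte genes and 24.1% for transcription factors, and ran from 6.79 to 20.2% among barrier transporters. For Acta2 and Myh11 it was 4.95 and 4.66 times the counting error, but for Tagln 1.17 times and for transcription factors 1.08 times (median), so that the spread of the latter was close to what their few reads give. Rgs5 varied least relative to its mean, apart from Abcc9, among the pericyte genes (6.11%, against 5.63% for Abcc9). The deviations of Acta2 and Myh11 from their group means correlated at 0.92 over the 17 libraries, a description of libraries that share their scaling. The 3 genes summed to 616, 388 and 351 normalized counts in Control Sal, 511, 297 and 185 in CBP-ifKO Sal, 416, 453 and 529 in Control PTZ0, 474 and 311 in Control PTZ45, 212, 305 and 495 in CBP-ifKO PTZ0 and 198, 360 and 446 in CBP-ifKO PTZ45. The highest library of CBP-ifKO Sal and of CBP-ifKO PTZ0 was the one with choroid plexus, and in CBP-ifKO PTZ45 and Control PTZ0 it was replicate 3 and in Control Sal replicate 1, none of which had high plexus markers. In every group the summed fibroblast and meningeal markers were highest in the same library as the smooth muscle genes. In Control Sal, for example, these markers summed to 2658, 2049 and 2091. Their part in the spread was not tested.

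Other genes of vessels were examined in lists. Of 38 further endothelial genes, 5 were lower in CBP-ifKO over all treatments and 0 higher, among 37 with an adjusted p, and of 18 further mural cell genes 2 were lower and 0 higher among 16. Over all genes tested 11.5% were called lower, so that both counts were near the share of all genes. Cd34, a sialomucin of endothelium and progenitor cells, had the smallest adjusted p of these, with a range of 466.0 to 663 normalized counts in Control and 323 to 438 in CBP-ifKO, without overlap (log2 fold change -0.60, SE 0.07, adjusted p = 1.78e-16). Tfrc, the transferrin receptor, which neurons also make (-0.40), Jcad, a junctional protein (-0.35), Ctla2a (-0.77) and Ly6e (-0.21) were lower too, and the mural genes were Myl9 (-0.33) and Cspg4 (-0.31), the latter also a gene of oligodendrocyte precursors. Cd34 was called lower in Sal, PTZ0 and PTZ45 taken alone. Of 30 signals of vessel growth and barrier formation, 7 were lower and 2 higher, where 11.5% and 7.76% of all genes were called. Wnt7b, a barrier-inducing ligand made by neurons, was at 278 to 413 in Control and 190 to 279 in CBP-ifKO (-0.56, adjusted p = 3.29e-11), overlapping in 1 library each, and Pdgfb, the ligand of Pdgfrb, at 177 to 239 and 119 to 174, without overlap (-0.44, adjusted p = 1.67e-06). Tgfb1 (-0.56) and Wnt7a (-0.26) were lower, and Angpt2, an angiopoietin, was higher (0.27). In the PTZ comparisons no gene of these lists was called. Of 8 genes of leaky vessels, 5 had an adjusted p and 1 was lower, Cav2 (-0.22), against the same 11.5%.

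Genes of the response to stimulation that vessels share with neurons formed another list. Among these 11 genes, 3 were higher in PTZ45 than in Sal in Control, Ccn1 (3.07), Apold1 (1.91) and Adamts1 (1.17), and 2 in CBP-ifKO, Ccn1 (2.03) and Apold1 (1.499), where 1.17% and 0.294% of all genes were called. Over all treatments 7 of the 11 were lower in CBP-ifKO, where 11.5% of all genes were. Apold1, an early response gene of endothelium, was at 45.2 to 58.4 normalized counts in Control Sal and at 176 and 217 in Control PTZ45, whereas Slc2a1, Cldn5 and the other members were not called there.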

How the data were processed

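Hippocampal total RNA was sequenced in 17 libraries as single-end reads of 50 bases. The authors deposited 1 table of raw counts, whole numbers that had not been normalized. Per the labels and the study's methods, reads were trimmed with Trim Galore 0.6.4, aligned with STAR 2.6.1 to GRCm38, filtered to a mapping quality above 10 and counted on Ensembl 99 exons with Rsubread. Strand use is not stated, so overlapping antisense genes are uncertain, and the filter removes reads shared by near-identical copies. Of 18 count columns, 1 matched no sample and was not used. By name it resembles Control PTZ45, for which 2 libraries were used. Symbols came from GENCODE M21 of the same build, and gene lengths were those deposited with the counts.

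DESeq2 1.42.0 (Wald test, R 4.3.3) was fitted to all genes with at least 1 count in the libraries compared, and a gene was called at a Benjamini-Hochberg adjusted p under 0.05 with independent filtering. Genes left without an adjusted p were not counted as tested. Pairs of groups were fitted alone, genotype over all 17 libraries with treatment as a term, and the interaction on Sal and PTZ45 libraries. Alternatives were edgeR 4.0.16, TMM size factors, a filter of at least 10 counts in 2 libraries, 1 fit of all libraries, a replicate block, a GC correction, lane as a term, each library left out and, added after the levels were seen, libraries with low choroid plexus markers. Intervals at 95% are from the Wald SE. Scripts were tested on simulated data. Given in full were the called members and 1 per role (Cldn5, Flt1, Slc2a1, Sox17, Pdgfrb, Acta2), the rest by range and count. Vwf, Myh11, Notch3, Slco1c1 and Tie1 were also named after their values were seen. Members and lists were chosen with earlier results of these data known. Depth of 5831992 to 18735643 counts limits precision for low genes.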

Additional observations from a re-analysis of the deposited data

Results flagged for a closer look

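Among 72 pairs of a gene and a genotype, 3 held a library far from the others of its genotype by Dixon's ratio, a test that chance alone flags about once in 20 groups. Slc2a1 was at 409 normalized counts in CBP-ifKO PTZ45 replicate 1, the lowest of 9 CBP-ifKO libraries, with the next at 492. Sox18, a low endothelial transcription factor, was at 9.74 in CBP-ifKO PTZ0 replicate 1, with the next at 15.3. Pdgfrb was at 340 in Control PTZ0 replicate 2, the highest of 8 Control libraries, with the next at 284, and that library is 1 of the 5 with high choroid plexus markers.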

How the results depend on the processing

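Over all treatments the count of members called was 2 in 1 fit of all 17 libraries (Mfsd2a and Rgs5), 0 with lane as a term, 2 in the libraries with low choroid plexus markers (Rgs5 and Vwf) and between 2 and 5 when each library was left out. Of all genes, 10.9% were called lower in the 1 fit and 7.86% with low plexus markers. With a library left out it was 10.5 to 13.2%, and 12.4% in the fit that called 5 members. It was 2 without replicate 1 of Control Sal, of CBP-ifKO Sal, of Control PTZ0 or of Control PTZ45 and without CBP-ifKO PTZ0 replicate 3, and 5, with Vtn, without CBP-ifKO PTZ45 replicate 3. For PTZ45 against PTZ0 in Control it was 0 in 1 fit of all libraries, 0 with the GC correction, 0 with low choroid plexus markers and 0 to 1 with a library left out. For the genotypes in Sal it was 0 to 2 with a library left out, where 0.986% of all genes were called lower in the fit with 2. For the genotypes in PTZ0 it was 0 with edgeR, 0 with TMM size factors, 0 with the filter on low counts, 0 in 1 fit of all libraries, 2 in the libraries with low choroid plexus markers (Myh11 and Vtn) and 0 to 3 with a library left out. Of all genes, 0.906% were called lower there with low plexus markers and 2.03% in the fit with 3. With the GC correction 1 was called in PTZ0, Rgs5 (adjusted p = 0.0377) in place of Vtn, where 4.57% of all genes were called lower. Leaving out a Control PTZ45 library leaves that group 1 library, which is assumed to vary like the other groups. The cause was not tested. No call changed sign. In no comparison with 3 or more pairs did the deviations of every same-numbered pair correlate above 0.1 (lowest 0.09 and highest 0.41 for PTZ0 against Sal in Control, below 0 for at least 1 pair in the others), so the numbers were not taken as pairing. PTZ45 against PTZ0 in Control, with 2 pairs, had both above 0.1 (0.11 and 0.17). In the other comparisons with 2 pairs both were below 0. Control PTZ45 replicate 2, numbered so by its title, has a 3 in its column name. With the replicate block, members called fell from 1 to 0 for PTZ45 against PTZ0 in Control (94 genes in all against 225) and from 1 to 0 for the genotypes in PTZ0 (410 against 852). The block also gave 73 genes against 204 for PTZ45 against Sal in Control, 122 against 306 and 102 against 468 for the genotypes in Sal and PTZ45, and 8 against 23 for PTZ45 against PTZ0 in CBP-ifKO. Over all treatments it gave 3 members, without Slc2a1 (adjusted p = 0.0641). Counts over all genes moved further with other settings. Over all treatments 3606 became 135 with the lane term, whose fit had as many coefficients as groups and was imprecise. It became 1870 with low choroid plexus markers. That setting also gave 160 against 852, 80 against 306 and 223 against 468 for the genotypes in PTZ0, Sal and PTZ45. For PTZ45 against Sal in Control it gave 121 against 204. In CBP-ifKO, PTZ45 against Sal gave 58 and with edgeR 4, with the GC correction 21 and in 1 fit 91. The genotypes in Sal gave 157 with edgeR and 614 in 1 fit, and those in PTZ45 gave 785 in 1 fit. The interaction gave 69, with edgeR 43 and with low choroid plexus markers 36. Depth limits the genes of low count, such as Foxq1, Tagln and Sox18.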
